A study of Mus musculus with 16 samples.

Results

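Barcodes rich in mitochondrial RNA were examined in single-cell RNA-Seq of bone marrow stromal cell cultures. A barcode was called mt-rich when the 13 genes encoded by mitochondrial DNA (symbols starting mt-) made up 20% or more of its gene UMIs, so the members were selected on their measured mitochondrial share. UMIs are the unique molecular identifiers that each count 1 captured RNA molecule. This rule selected 1444 of 17793 barcodes (8.12%) in 15 samples, and the 16349 barcodes under 20% are called other barcodes. Cultures were made from male 12-week-old C57BL/6J littermates and collected at day 21 in 10 mM bGP (beta-glycerophosphate, a phosphate source for mineralizing cells) and 50 ug/ml ascorbic acid, which all groups share. WT mice were Dmp1+/+ Fgf23 fl/fl without cre, Fgf23cKO mice were Dmp1+/+ Fgf23 fl/fl Dmp1-cre+, Dmp1KO mice were Dmp1-/- Fgf23 fl/fl without cre, and Dmp1KO/Fgf23cKO mice were Dmp1-/- Fgf23 fl/fl Dmp1-cre+, so that every group carried floxed Fgf23. Dmp1 was deleted in all cells, whereas Dmp1-cre is active in mature osteoblasts and osteocytes, so that Fgf23 is left intact in other cells of the cultures. Each genotype had 3 cultures with a tag each (samples 1 to 3) and a sample 4 of untagged cells of the same pool. Live cells (7-AAD negative) were sorted and pooled by genotype into 1 droplet reaction, and a difference between genotypes cannot be told apart from one between reactions. Dmp1KO sample 1 was not used here, which left 11 tagged cultures, 2 of them Dmp1KO.

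Mitochondrial DNA encodes subunits of the respiratory chain and of ATP synthase, and its transcripts stay inside the mitochondria, whereas nuclear transcripts are exported to the cytoplasm. In droplet data, a high mitochondrial percentage is commonly used to set aside damaged or dying cells, since cytoplasmic RNA can leave a cell whose membrane is broken while mitochondria remain. Some intact cell types with many mitochondria can also reach high percentages.

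The mt-rich barcodes differed from the others mainly in how few non-mitochondrial UMIs they held, which the rule itself favors, and the following values are given as a description without a test. The median mt-rich barcode held 1174 gene UMIs, of which 734.5 were mitochondrial and 364.5 were not, and 282.5 genes. The median of the other barcodes was 16754 gene UMIs, 485 mitochondrial UMIs, 16217 non-mitochondrial UMIs and 4260 genes. By the ratio of the medians over all samples, non-mitochondrial UMIs were 44.5-fold lower. Mitochondrial UMIs did not have 1 direction, since the ratio of the medians was 1.66 to 2.23 in the 3 WT cultures and 0.735 to 0.901 in the other 8 tagged cultures. The other barcodes held median mitochondrial UMIs of 196, 199 and 210 in WT cultures 1 to 3 and 1411, 1492.5 and 1226 in Fgf23cKO cultures 1 to 3. Every barcode held at least 500 gene UMIs whatever the depth of its reaction, and the part of this floor in the ratios was not tested. Among tagged cultures, the mean number of mitochondrial UMIs per mt-rich barcode was at the lowest 75.1%, at the median 95.5% and at the highest 194% of that of other barcodes, and the mean number of non-mitochondrial UMIs was 1.46%, 2.14% and 4.69%. Within the mt-rich barcodes, the median mitochondrial percentage was 68.4%, and 78.0% of them were at 50% or more.

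**Figure D1:**
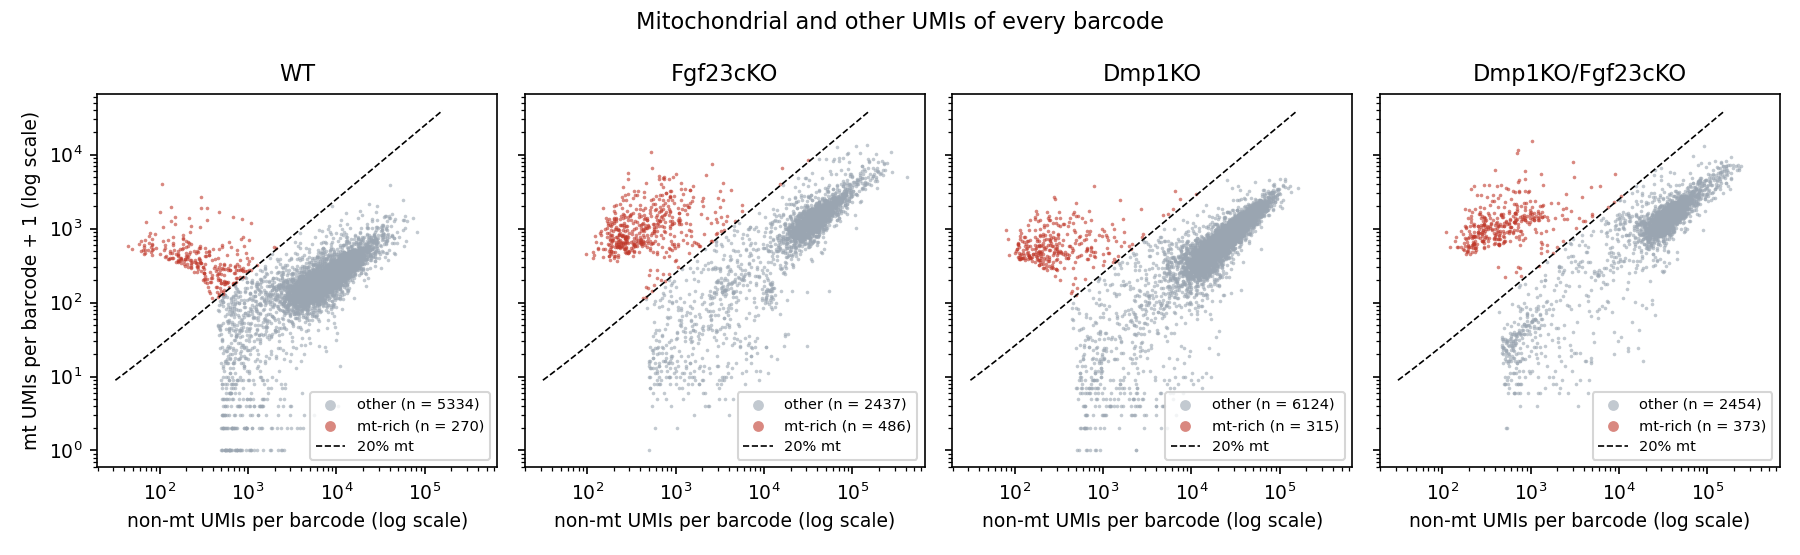
Mitochondrial UMIs plus 1 (y axis, log scale) against non-mitochondrial UMIs (x axis, log scale) of every barcode, with 1 panel per genotype and all samples of a genotype together. Each point is a barcode, red for the 1444 mt-rich barcodes and grey for the other 16349, and the dashed line marks 20%. The mt-rich barcodes lie to the left at few non-mitochondrial UMIs. In tagged cultures, the ratio of their median mitochondrial UMIs to that of other barcodes was 1.86 in WT and 0.825 to 0.884 in the remaining genotypes. These ratios are not adjusted for the depth of the reaction or the floor of 500 gene UMIs.

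Few barcodes lay near the threshold. Between 18 and 20% there were 39 barcodes with medians of 1866 gene UMIs and 1033 genes, and between 20 and 22% there were 41 with 1360 gene UMIs and 698 genes. The lowest total of any barcode was 500 gene UMIs. Of barcodes with under 1000 gene UMIs, 43.3% were mt-rich, compared with 5.29% of deeper barcodes. In total, the mt-rich barcodes held 964303 non-mitochondrial UMIs, and the other barcodes 363313985.

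The share of mt-rich barcodes was higher in the Fgf23cKO and Dmp1KO/Fgf23cKO cultures than in the WT and Dmp1KO cultures. WT cultures 1 to 3 held 41 of 1114 (3.68%), 68 of 1987 (3.42%) and 135 of 1854 barcodes (7.28%). Fgf23cKO cultures 1 to 3 held 84 of 509 (16.5%), 78 of 470 (16.6%) and 103 of 632 (16.3%). Dmp1KO cultures 2 and 3 held 96 of 2825 (3.40%) and 165 of 2776 (5.94%), and Dmp1KO/Fgf23cKO cultures 1 to 3 held 118 of 969 (12.2%), 127 of 888 (14.3%) and 80 of 553 (14.5%). Neither group of cultures with cre overlapped with a group without it, whereas Dmp1KO overlapped with WT. The untagged samples held 4.01% in WT, 16.8% in Fgf23cKO, 6.44% in Dmp1KO and 11.5% in Dmp1KO/Fgf23cKO.

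By exact two-sided permutation of the cultures, adjusted over the 4 comparisons, the mean share was 11.7 percentage points higher in Fgf23cKO than in WT (16.5% ± 0.153 SD, n = 3, compared with 4.79% ± 2.16, n = 3, exact p = 0.1, adjusted p = 0.133). It was 8.85 points higher in Dmp1KO/Fgf23cKO than in WT (13.6% ± 1.28, n = 3, exact p = 0.1, adjusted p = 0.133) and 8.98 points higher than in Dmp1KO (4.67% ± 1.80, n = 2, exact p = 0.1, adjusted p = 0.133). Dmp1KO was 0.124 points below WT (difference -0.124, exact p = 0.8). A p of 0.1 is the smallest that 3 against 3 or 2 against 3 cultures can give, so none of these could pass a threshold of 0.05.

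Depth also differed between the genotypes. The median other barcode of the tagged cultures held 7489 gene UMIs in WT, 36580 in Fgf23cKO, 21825 in Dmp1KO and 35722 in Dmp1KO/Fgf23cKO, and all 4 reactions had the same lowest total of about 500 gene UMIs. Of the mt-rich barcodes of tagged cultures, 78.7% in WT and 57.5% in Dmp1KO had under 1000 gene UMIs, compared with 16.2% in Fgf23cKO and 10.8% in Dmp1KO/Fgf23cKO. When the floor of 500 gene UMIs was scaled to the depth of each reaction relative to WT, the mean share became 4.79% in WT, 5.51% ± 1.19 in Fgf23cKO (n = 3), 1.26% ± 0.435 in Dmp1KO (n = 2) and 4.94% ± 0.355 in Dmp1KO/Fgf23cKO (n = 3). The difference between Fgf23cKO and WT was then 0.711 points and that between Dmp1KO/Fgf23cKO and WT 0.145 points, with overlap in both. Dmp1KO was -3.54 points from WT without overlap (at most 1.57% compared with at least 3.42%), and Dmp1KO/Fgf23cKO 3.68 points above Dmp1KO. With a floor of 500 genes in place of 500 UMIs, Fgf23cKO and Dmp1KO/Fgf23cKO were 4.56 and 4.08 points above WT and did not overlap with it. How much of the difference in share follows from depth was not tested beyond these 2 floors.

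**Figure D2:**
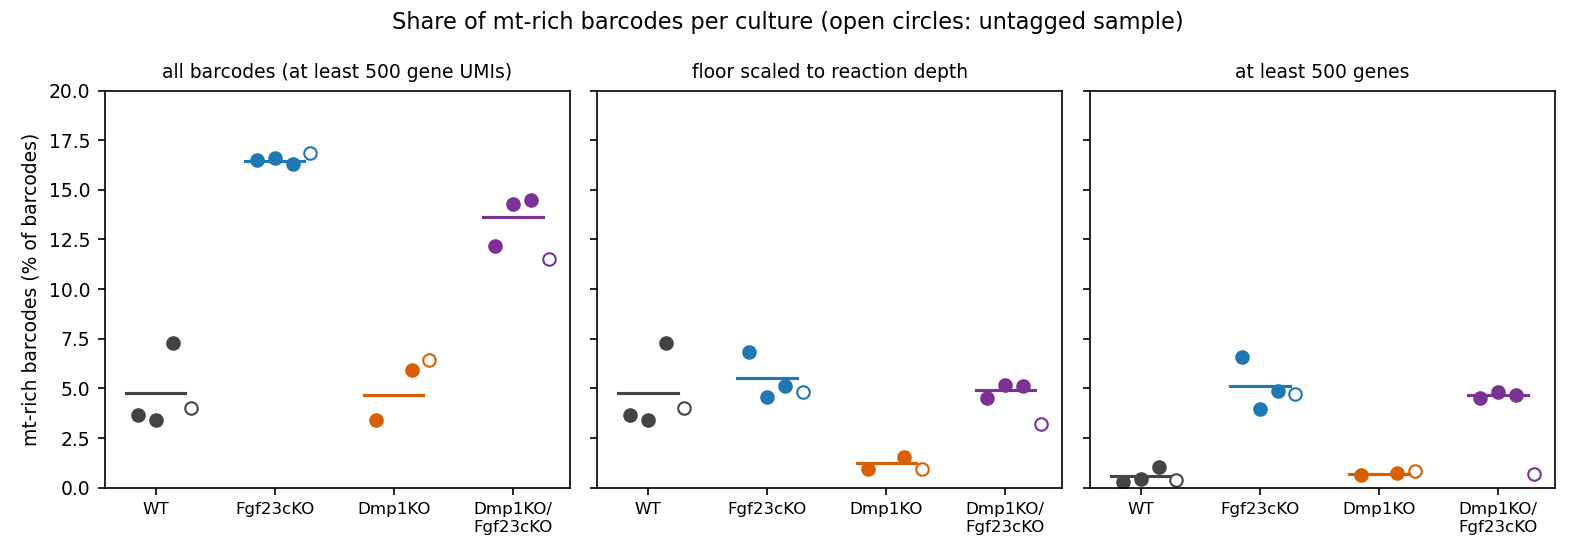
Share of mt-rich barcodes in percent of all barcodes (y axis) by genotype (x axis), for all barcodes, for a floor scaled to the depth of the reaction and for barcodes with at least 500 genes. Filled points are tagged cultures, open circles the untagged samples and lines the means of the tagged cultures. Fgf23cKO lies at 16.3 to 16.6% in the first panel and at a mean of 5.51% in the second, where WT is at 4.79%.

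Barcodes had been assigned to the cultures by their tag, so that the leading tag was largely fixed beforehand and a barcode with too few tag UMIs could not enter a tagged culture. In WT culture 1, CMO301 led in 97.2% of other barcodes and in 100% of mt-rich barcodes. In the remaining tagged cultures the same tag led in every barcode. The following tag values therefore hold among assigned barcodes. Median tag UMIs per mt-rich barcode were 1972, 12774 and 20522 in WT cultures 1 to 3, compared with 1557, 8476 and 14954 in other barcodes. In Fgf23cKO cultures 1 to 3 they were 15734.5, 11685.5 and 8184, compared with 10245, 8214 and 8270. Tag UMIs were higher in mt-rich barcodes in 9 of 11 cultures, and in Fgf23cKO culture 3 and Dmp1KO culture 3 they were lower. The mean log2 ratio was 0.29 ± 0.24 (SD, n = 11, exact two-sided sign-flip permutation p = 0.00586, adjusted p = 0.0117 over 2 tag measures). The share of tag UMIs on the leading tag differed by -0.0501 points ± 2.07 (exact p = 0.910). Of the barcode sequences, 35 occurred in more than 1 library, none of them within a genotype, and 4 of the 35 had an mt-rich member.

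The mitochondrial UMIs themselves were composed differently, a comparison the rule does not fix because it used only their sum. As a share of mitochondrial UMIs, 5 of 13 genes were higher in mt-rich barcodes, 2 were lower and 6 did not pass the test (exact two-sided sign-flip permutation over 11 cultures, adjusted over 13 genes). The largest ratio was that of mt-Nd6, a subunit of complex I and the protein-coding gene that is read from the light strand of mitochondrial DNA. Its share was at the lowest 0.210%, at a mean of 0.428% ± 0.239 and at the highest 0.925% of mitochondrial UMIs in mt-rich barcodes, compared with 0.0848%, 0.193% ± 0.129 and 0.399% in other barcodes. It was higher in 11 of 11 cultures, by a ratio of 2.21 (exact p = 0.000977, the smallest that 11 cultures can give, adjusted p = 0.00212), although the ranges of the 2 kinds of barcodes overlapped because cultures differed.

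Among the genes of the respiratory chain and ATP synthase, mt-Atp6 (ATP synthase, 17.4% ± 2.40 compared with 15.7% ± 2.07), mt-Nd2 (complex I, 6.93% ± 1.09 compared with 5.92% ± 1.09) and mt-Co2 (complex IV, 13.3% ± 1.61 compared with 12.4% ± 1.55) were also higher in 11 of 11 cultures (adjusted p = 0.00212 each, exact test). mt-Cytb (complex III, 10.3% ± 1.23 compared with 9.43% ± 0.686) was higher in 10 of 11 (exact test, adjusted p = 0.00725). mt-Co1, the catalytic subunit of complex IV, was lower in 11 of 11 cultures, at 17.6% ± 2.57 compared with 21.8% ± 1.84, and mt-Nd1 of complex I was lower in 11 of 11, at 4.64% ± 0.501 compared with 5.41% ± 0.673 (adjusted p = 0.00212 each, exact test). mt-Co1 and mt-Co2, subunits of the same complex, thus differed in opposite directions, as did mt-Nd1 and mt-Nd2. mt-Co3, mt-Nd3, mt-Nd4, mt-Nd4l, mt-Nd5 and mt-Atp8 had ratios of 0.960 to 1.05 with adjusted p of 0.171 to 0.821 (exact test).

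**Figure D3:**
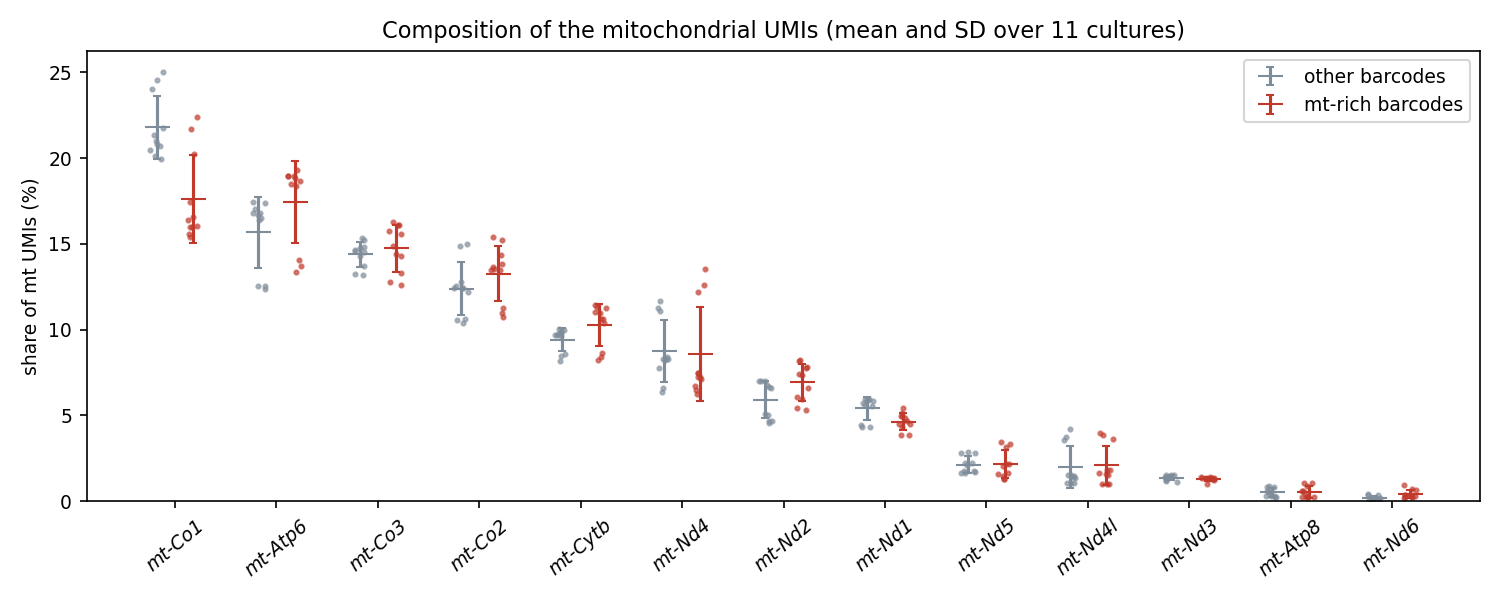
Share of each of the 13 mitochondrial genes in the mitochondrial UMIs (y axis, percent) for other barcodes (grey) and mt-rich barcodes (red). Points are the 11 tagged cultures and bars the mean and SD. mt-Co1 was lower and mt-Atp6, mt-Co2 and mt-Nd2 were higher in the mt-rich barcodes of all 11 cultures.

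Among the nuclear transcripts that remained, macrophage markers outnumbered stromal markers in every tagged culture, least in WT culture 2 (710 compared with 634 UMIs). In the untagged WT sample they did not (212 compared with 637 UMIs). Barcodes were classed by the UMIs of 16 macrophage and 16 stromal marker genes. At least 90% of these UMIs came from macrophage genes in 50.9% ± 18.9 of mt-rich barcodes (22.5 to 81.2% over 11 cultures) and in 90.3% ± 4.51 of other barcodes (84.2 to 97.5%). Barcodes between the 2 lists made up 48.0% ± 19.2 compared with 5.52% ± 2.89. At least 90% came from stromal genes in 0.758% ± 1.31 compared with 4.14% ± 2.01. The first share was lower in 11 of 11 cultures and the second higher in 11 of 11 (exact two-sided sign-flip permutation, adjusted p = 0.00195 each), and the third was lower in 10 of 11 (adjusted p = 0.00391). In total, 17 mt-rich barcodes had at least 90% stromal UMIs, 734 had at least 90% macrophage UMIs, 690 lay between and 3 had no UMI of either list.

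These classes rest on few UMIs. The median mt-rich barcode held 13 UMIs of the macrophage list and 2 of the stromal list, compared with 578 and 2 in other barcodes, and 383 mt-rich barcodes (26.5%) lay within 5 points of the 90% limit. A stromal UMI was found in 71.4% of mt-rich barcodes at a median of 364.5 non-mitochondrial UMIs, and in 74.4% of the other barcodes with at least 90% macrophage UMIs at a median of 17206. These 2 shares of barcodes were taken at unlike depth, so they do not compare the stromal part of the UMIs. The macrophage class is also itself defined by few stromal UMIs. In WT culture 3 the shares were 68.1% and 62.5%. Among the 734 mt-rich barcodes with at least 90% macrophage UMIs, 44.1% held a stromal UMI, at a median of 393 non-mitochondrial UMIs. The mean number of stromal list UMIs per mt-rich barcode was above that of the other barcodes with at least 90% macrophage UMIs in 4 of 11 cultures (WT 1 to 3 and Dmp1KO 2), and the part of free RNA was not tested. Per barcode, mt-rich barcodes held at the lowest 30.8%, at the median 56.7% and at the highest 631% of the stromal list UMIs of these macrophage barcodes. For the macrophage list the values were 1.22%, 1.70% and 3.56% of theirs. After each barcode was thinned to 500 non-mitochondrial UMIs, which left out 198 of 270 mt-rich barcodes in WT, 275 of 486 in Fgf23cKO, 240 of 315 in Dmp1KO and 200 of 373 in Dmp1KO/Fgf23cKO, the shares of at least 90% macrophage were 59.0% and 90.1%, those of at least 90% stromal 3.66% and 4.67%, which did not pass the test (adjusted p = 0.650, exact permutation), and those between 37.3% and 4.88%.

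For each culture, the non-mitochondrial UMIs of mt-rich and of other barcodes were summed and compared in CPM (UMIs per 1000000 non-mitochondrial UMIs), so that values below are shares of what remained and not amounts per cell. The sums of mt-rich barcodes held 12837 to 113092 UMIs, and deep barcodes weigh more in them. In WT culture 1, 3 of 41 mt-rich barcodes had at least 500 genes and held 2431 of the 12837 UMIs. In Dmp1KO/Fgf23cKO culture 1, 40 of 118 did and held 80451 of the 113092. Of 11142 genes tested in edgeR (quasi-likelihood test with culture as a block, Benjamini-Hochberg adjusted p under 0.1), 251 rose (2.25%) and 804 fell (7.22%), in all 9.47% of genes, and the median log2 fold change of all genes was -0.17. With the TMM and RLE normalization factors of edgeR, which rescale the totals, 243 rose and 1306 fell, and 386 rose and 398 fell, with medians of -0.26 and -0.02. With at least a 2-fold change, 168 rose (1.51%) and 285 fell (2.56%). The genes that rose made up 23.8% of calls without a factor, 15.7% with TMM and 49.2% with RLE. All 24 genes named next kept their direction and call with both factors, in DESeq2 and with each culture left out.

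Gm42418, annotated as a long noncoding RNA, made up at the lowest 31501, at the median 51702 and at the highest 102450 CPM in the mt-rich barcodes of the 11 cultures, compared with 1087, 4384 and 5708 in other barcodes. The 2 kinds of barcodes did not overlap, and the log2 fold change was 4.33 (SE 0.107, edgeR adjusted p = 8.1e-52). AY036118, likewise annotated as a long noncoding RNA, was at 598, 1013 and 2946 CPM compared with 76.8, 129 and 465 (log2 fold change 2.90, SE 0.132, adjusted p = 1.09e-32). Both lie on chromosome 17 of mm10 (Gm42418 from 39846958 to 39848788, plus strand, and AY036118 from 39847113 to 39848035, minus strand) entirely within the ribosomal RNA gene CT010467.1 (39846353 to 39848827, minus strand). RefSeq lists Gm42418 as a synonym of Rn18s-rs5, an 18S ribosomal RNA sequence. Ribosomal RNA genes exist in many copies, so the origin of reads assigned to either gene is uncertain.

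Of 50 called genes that were at least 4-fold higher, 9 met the rule for naming, and the 7 of these that follow do not overlap an annotated ribosomal RNA gene. The rule asks for a mean over both kinds of barcodes of at least 100 CPM and the same sign in all 11 cultures. Among the 41 outside it, named after their values were seen, are Dgkb (186 compared with 3.15 CPM, log2 fold change 5.53, SE 0.305) and Nkain2 (255 compared with 5.43 CPM, 5.08, SE 0.346). Gm19951, a long noncoding RNA of chromosome 12 (99643093 to 99647221), was at 156, 849 and 2661 CPM compared with 5.67, 39.9 and 49.2 (log2 fold change 5.17, SE 0.169). Cmss1, a gene named for a yeast protein of the small ribosomal subunit (chromosome 16, 57302000 to 57606864), was at 2169, 9032 and 16629 compared with 109, 444 and 517 (4.61, SE 0.106). Lars2, the leucyl-tRNA synthetase of mitochondria that is encoded in the nucleus (chromosome 9, 123366927 to 123462666), was at 1246, 3153 and 10199 compared with 62.5, 203 and 276 (4.52, SE 0.130).

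In Gm19951, Cmss1 and Lars2 the lowest mt-rich culture lay above the highest value of other barcodes. The same held for Cdk8, the kinase of the Mediator complex (log2 fold change 3.92, SE 0.131), Gphn, which encodes the synaptic scaffold gephyrin (3.91, SE 0.116), and Camk1d, a calmodulin-dependent kinase (2.52, SE 0.102). Ccnd2, which encodes cyclin D2, was at 216, 725 and 3257 CPM compared with 37.7, 185 and 284 (2.53, SE 0.221), and here the ranges overlapped. The adjusted p in edgeR was 1.15e-15 for Ccnd2 and smaller for the other 6. The 9 named genes together made up 8.40% ± 3.87 of non-mitochondrial UMIs in mt-rich barcodes (3.97 to 15.5%, n = 11) and 0.521% ± 0.276 in other barcodes (0.181 to 0.856%).

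By the ratio of mean UMIs per barcode, the median over cultures of each of these 9 transcripts was below the level of other barcodes, at 13.7% (AY036118) to 71.4% (Cmss1) of it. The mean number of Gm42418 UMIs in mt-rich barcodes was at the lowest 18.5%, at the median 53.8% and at the highest 145% of that in other barcodes, Cmss1 was at 29.1%, 71.4% and 186%, and Lars2 at 20.3%, 60.3% and 119%. The sum of all non-mitochondrial UMIs was at 1.46 to 4.69%. Malat1, a noncoding RNA retained in the nucleus, was at 0.532%, 1.91% and 8.20%. Medians per barcode gave other values than these means. The median of Gm42418 was lower in the mt-rich barcodes of every culture, at 26 compared with 159 UMIs in Fgf23cKO culture 1 and 6 compared with 8 in WT culture 3. In the same cultures Cmss1 had medians of 3.5 compared with 16 and 2 compared with 2, and Lars2 of 1 compared with 8 and 0 compared with 1.

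The remaining genes that rose and were named by rule had smaller changes with overlapping ranges. Dpysl3, a cytoskeleton-associated protein, was 1.98 higher on the log2 scale (SE 0.232), Sh3pxd2a, a scaffold of podosomes, 1.93 higher (SE 0.216) and Gpx3, a secreted glutathione peroxidase, 1.65 higher (SE 0.169), each in 11 of 11 cultures as the rule required.

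Genes that fell were changed less. Cd36, the scavenger receptor and fatty acid transporter, was at the lowest 77.9, at the median 252 and at the highest 548 CPM in mt-rich barcodes, compared with 519, 694 and 1104 in other barcodes (log2 fold change -1.35, SE 0.139, edgeR adjusted p = 2.56e-12). Atp2b1, a calcium pump of the plasma membrane, was at 77.9, 292 and 460 compared with 479, 602 and 821 (-1.13, SE 0.142). Both fell in 11 of 11 cultures, as the rule required, and Atp2b1 did so without overlap between the 2 kinds of barcodes. Of the genes named by rule, Ptpn12, a tyrosine phosphatase, had the largest decrease (-1.43, SE 0.224), followed by Cd36, the transcriptional repressor Trps1 (-1.34, SE 0.165) and Selenos, a selenoprotein of the endoplasmic reticulum (-1.32, SE 0.230). The scaffold gene Tanc2, Jmjd1c of the lysine demethylase family, the adhesion molecule Alcam, Tmcc1 of the endoplasmic reticulum, Ralgapa2 of a Ral GTPase-activating complex, Kansl1 of the NSL acetyltransferase complex and Ifrd1 fell by 1.06 to 1.26 on the log2 scale. Ranges did not overlap for Selenos, Tmcc1, Ralgapa2 and Atp2b1. Named genes that fell had 46 to 223 UMIs in all mt-rich barcodes of the 11 cultures together.

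**Figure D4:**
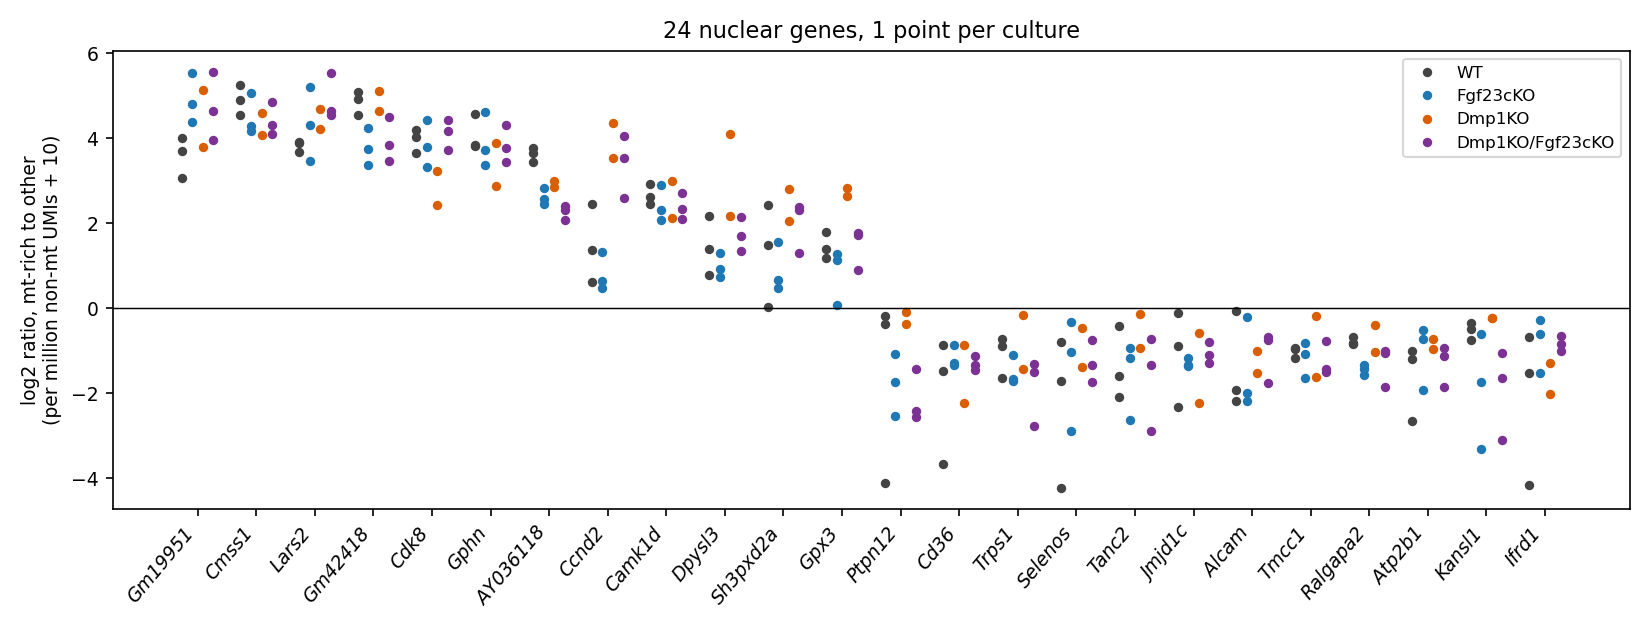
Log2 ratio of mt-rich to other barcodes (y axis, on CPM plus 10) for the 24 genes named by rule (x axis). Each point is a tagged culture, colored by genotype. All 11 cultures lie above 0 for the 12 genes that rose and below 0 for the 12 that fell, which the rule for naming required.

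The same transcripts were also more abundant in other barcodes of low depth. In 5 cultures (WT 1 to 3 and Dmp1KO 2 and 3), 10 or more other barcodes had under 1000 non-mitochondrial UMIs, 207 in all. Gm42418 was at 36236 CPM ± 3992 (SD, n = 5) in their mt-rich barcodes, at 18127 ± 14392 in these shallow other barcodes and at 1229 ± 110 in all other barcodes. AY036118 was at 1032 ± 362, 1004 ± 514 and 87.6 ± 9.17, and Camk1d at 2788 ± 1034, 2711 ± 813 and 441 ± 163. Ccnd2 was at 660 ± 228 in mt-rich barcodes and at 1453 ± 1536 in shallow other barcodes, and Cd36 at 341 ± 194 and 495 ± 243.

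When mt-rich barcodes were tested against the shallow other barcodes of the same 5 cultures, 0 of 500 genes rose and 3 fell in edgeR, and 53 had an unadjusted p under 0.05. The 3 were Cald1, an actin-binding protein of contractile cells (-1.57, SE 0.225), Ccnd1, which encodes cyclin D1 (-0.99, SE 0.212), and the actin-associated Palld (-1.56, SE 0.337), all named after their values were seen. In that test Gm42418 was 1.32 higher (SE 0.345, adjusted p = 0.163) and Camk1d differed by 0.00440 (SE 0.295). Cmss1 (5744 ± 3621 compared with 2362 ± 1032 CPM, 1.18 higher, SE 0.438, adjusted p = 0.296) and Gphn (2361 ± 1028 compared with 1201 ± 741, 1.08 higher, SE 0.420, adjusted p = 0.355) did not pass the test either, and Gm19951, which was not tested, was at 305 ± 150 compared with 86.8 ± 86.1, higher in 5 of 5 cultures. With 500 genes tested, the comparison covers few of the 11142.

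The span of a gene on the genome moved with its change. After the 9 named genes at least 4-fold higher were left out, the median log2 fold change was -0.01 for 2577 genes spanning under 10 kb, -0.10 for 3630 genes of 10 to 30 kb, -0.28 for 3373 genes of 30 to 100 kb and -0.44 for 1552 genes of 100 kb or more. In these 4 classes 62 (2.41%), 109, 297 (8.81%) and 336 (21.6%) genes fell, compared with 7.22% of all genes tested, and 79, 90, 40 and 32 rose. When the 9 genes were also left out of the totals and the fit repeated, 30 (1.16%), 46, 148 (4.39%) and 210 (13.5%) fell and 126, 120, 60 and 45 rose. The classes then held 2579, 3634, 3374 and 1552 genes, and in that fit 434 of all 11140 genes fell and 352 rose. Genes of 100 kb or more, without Cmss1, Gphn and Camk1d of the 9, held 9.75% ± 1.80 of non-mitochondrial UMIs in mt-rich barcodes (8.03 to 14.2%) and 13.0% ± 1.68 in other barcodes (10.0 to 15.2%), lower in 10 of 11 cultures. Cmss1, Gphn and Camk1d were at means of 8811, 4664 and 3460 CPM in mt-rich barcodes and 352, 295 and 601 in other barcodes. Counting these 3 long genes would narrow the difference. Genes under 10 kb, without Gm42418, AY036118 and Gm19951, held 43.8% ± 2.88 and 44.2% ± 3.43, lower in 6 of 11. Spans are those of the GENCODE M21 annotation, and whether span itself or another property of long genes moved with the change was not tested.

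Along the mitochondrial percentage, nuclear RNAs did not change in 1 direction, and these values are a description over bins. Malat1 was at 16590 CPM in barcodes of 0 to 5%, at 32160 between 10 and 20%, at 19507 between 20 and 50% and at 4983 between 50 and 80%. Genes of 100 kb or more, again without Cmss1, Gphn and Camk1d, followed the same course, with 129599, 161128, 125235 and 69242 CPM. Ribosomal protein genes went the opposite way, with 125457, 92596, 106348 and 147365. Gm42418 was at 23953 CPM between 10 and 20%, was at 58761 between 20 and 50% and at 50763 between 50 and 80%. Between 10 and 20%, the stromal list was also higher and the macrophage list lower than in the bins on either side, as given under Other observations. Values are means over 11 cultures with 12164 (0 to 5%), 312 (10 to 20%) and 640 (50 to 80%) barcodes, but over 9 cultures with 230 barcodes between 20 and 50%.

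**Figure D5:**
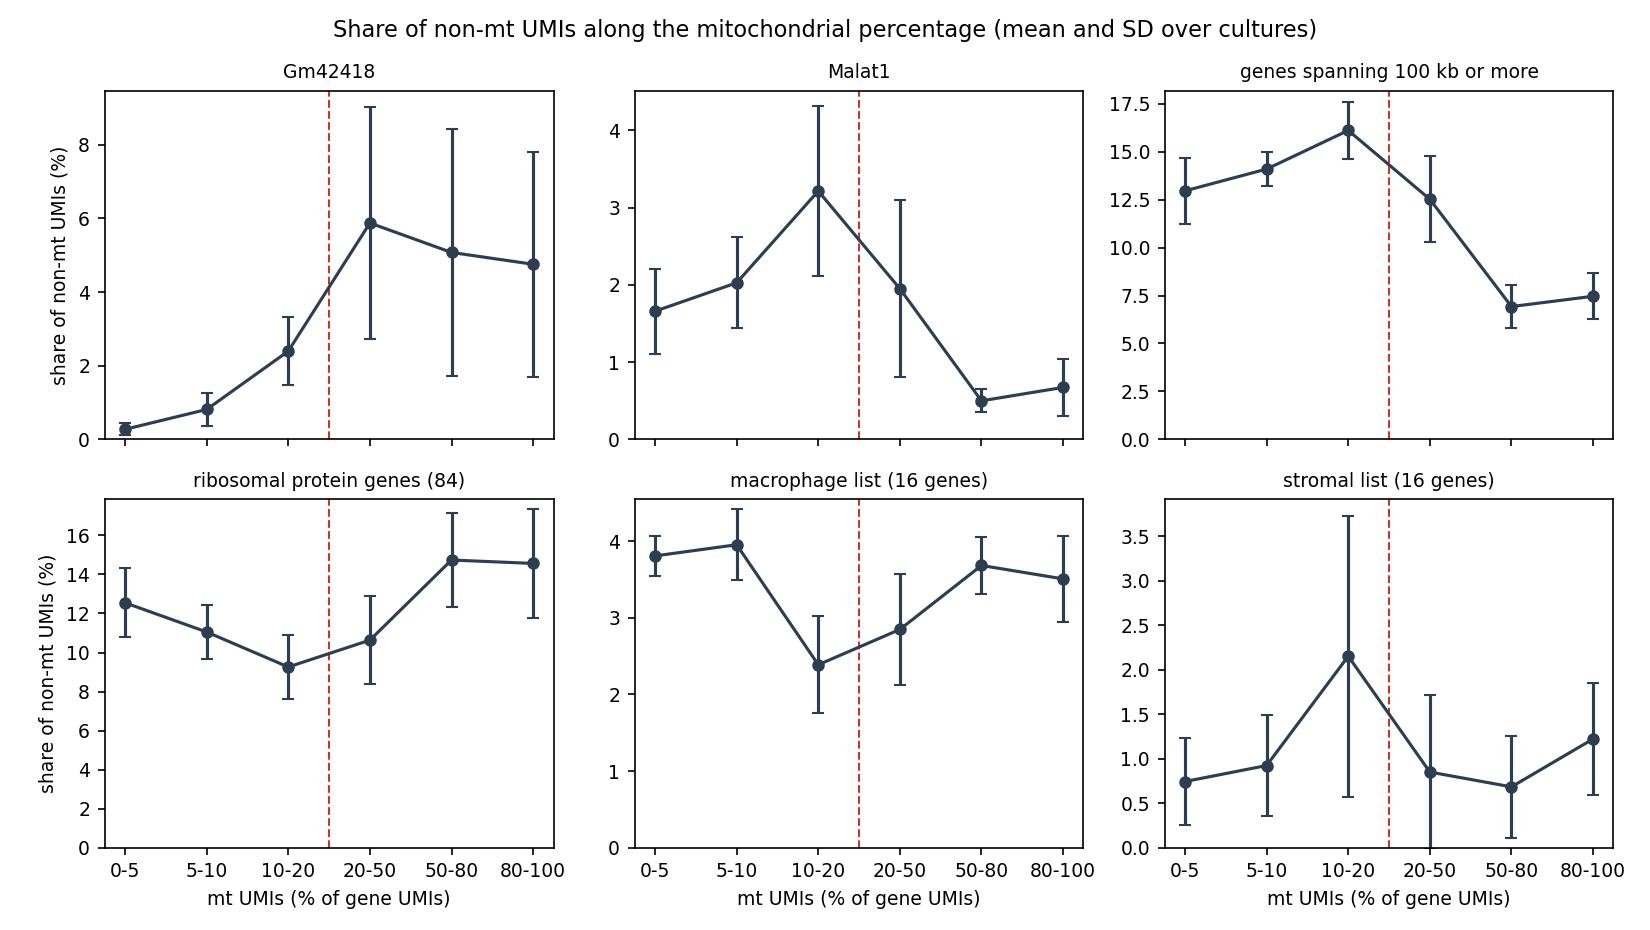
Share of non-mitochondrial UMIs in percent (y axis) by bin of the mitochondrial percentage (x axis) for Gm42418, Malat1, genes spanning 100 kb or more, ribosomal protein genes and the macrophage and stromal lists. Points are means and bars SDs over the cultures with at least 10 barcodes in the bin (9 cultures for 20 to 50%, otherwise 11), bars are cut at 0, and the dashed line marks 20%. Malat1 and long genes peak between 10 and 20% and are lowest above 50%. The long genes leave out Cmss1, Gphn and Camk1d.

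The mt-rich barcodes were accordingly not uniform. In the 9 cultures with at least 10 barcodes in each range, barcodes of 50% or more (707) and of 20 to 50% (230) were set side by side without a test, since the percentage is the measure that chose them. Malat1 was at 5357 CPM ± 1881 above 50% and at 19507 ± 11490 between 20 and 50%, lower in 9 of 9 cultures. Long genes, without Cmss1, Gphn and Camk1d, were at 69370 ± 12107 and 125235 ± 22353, lower in 9 of 9. Ribosomal protein genes were at 152018 ± 23369 and 106348 ± 22353, higher in 9 of 9, and nuclear genes of oxidative phosphorylation at 26700 ± 4051 and 18841 ± 3604, higher in 9 of 9. The macrophage list was higher above 50% in 8 of 9 cultures (36308 ± 3525 and 28479 ± 7273).

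The counts of list members that follow stand beside 2.25% of all genes that rose and 7.22% that fell, and beside 4.48% that rose and 21.9% that fell of the 1719 genes of at least 100 CPM without the 9 named ones. Over all mt-rich barcodes, 7 of 16 macrophage genes fell and none rose, with a median log2 fold change of -0.23 compared with -0.17 for all genes. With RLE factors, 4 fell and 1 rose. Lyz2 (lysozyme) was at 16828 CPM ± 2945 compared with 20337 ± 2066 and was lower in 10 of 11 cultures, C1qc of complement C1q at 1404 ± 312 compared with 1898 ± 234, lower in 11 of 11, Cybb (a subunit of the phagocyte NADPH oxidase) at 318 ± 82.5 compared with 563 ± 76.5 and Ptprc (CD45) at 218 ± 49.9 compared with 360 ± 22.8. The list as a whole was at 31963 ± 4229 and 38056 ± 2588, lower in 10 of 11 cultures. All 16 genes were detected in mt-rich barcodes.

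Of 16 stromal genes, 2 rose and none fell (median 0.55, with 2.25% of all genes that rose), namely the proteoglycan Bgn (267 ± 109 compared with 124 ± 65.4 CPM) and the collagen Col5a1 (166 ± 111 compared with 97.3 ± 54.7), higher in 9 and 7 of 11 cultures. The list as a whole was at 8267 ± 6654 and 7703 ± 4787 CPM and was lower in mt-rich barcodes in 7 of 11 cultures, with WT culture 2 the highest (26645 compared with 4127). With TMM factors 3 rose and 1 fell, and with RLE factors 6 rose and none fell. Col1a1, the alpha 1 chain of type I collagen, was at 3100 ± 4109 and 2648 ± 1747 and did not pass the test (log2 fold change 0.04, SE 0.182). Of 10 contractile genes, 5 rose and none fell (median 1.00, with 2.25% of all genes that rose), among them Cald1 (725 ± 498 compared with 187 ± 90.2), Tpm2 (229 ± 111 compared with 87.7 ± 45.0), Myl9 (71.6 ± 44.6 compared with 38.8 ± 22.7) and Tpm1 (782 ± 623 compared with 354 ± 126). Cald1, Tpm1 and Tpm2, which bind actin, were higher in 10 of 11 cultures and Myl9, a myosin light chain, in 8 of 11. Against other barcodes under 1000 UMIs, where 2 of these genes could be tested, Cald1 fell (-1.57) and Tpm1 was at -0.0072. In barcodes with at least 90% macrophage UMIs, 11 of 11 stromal genes tested were higher in mt-rich barcodes (median 2.55), but this class is cut from the same list and a barcode with 13 list UMIs can reach it with 1 stromal UMI. No gene of the osteoblast and osteocyte list was called among 10 tested (median 0.07), but 1 fell with TMM factors and 1 rose with RLE factors. In barcodes with at least 90% macrophage UMIs, 4 of 5 of these genes tested rose (median 3.49).

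Markers of other blood and vessel cells were nearly absent. B cell and T or NK cell markers had 0 UMIs in mt-rich barcodes, and neutrophil, erythroid, megakaryocyte, mast cell, endothelial and dendritic cell lists each summed to a mean of at most 30.7 CPM over the 11 cultures. The highest was the neutrophil list, at 30.7 ± 20.7 (12.2 to 77.9) compared with 39.9 ± 3.85 in other barcodes. Of 7 osteoclast genes, Acp5 was called higher (186 ± 286 compared with 83.0 ± 54.1 CPM), although it was higher in 5 of 11 cultures and lower in 6 and no osteoclast gene was called higher in DESeq2, and Atp6v0d2 fell (153 ± 98.6 compared with 239 ± 184, lower in 9 of 11).

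Of 28 genes whose products enter the endoplasmic reticulum and reach lysosomes or the cell surface, 13 fell and none rose (median -0.28), compared with 7.22% of all genes and 21.9% of genes of at least 100 CPM that fell. In barcodes with at least 90% macrophage UMIs, 4 of the 28 fell and 3 rose. Of 20 abundant genes of the cytosol, 5 fell and 2 rose (median -0.04), but with RLE factors 1 fell and 5 rose. With TMM factors 5 of these genes fell and none rose. Ctsl, a lysosomal protease, was at 562 ± 354 CPM compared with 996 ± 568, Lipa, the lysosomal acid lipase, at 435 ± 127 compared with 715 ± 64.3, and Lamp2, a lysosomal membrane protein, at 257 ± 87.6 compared with 390 ± 34.4. The list of 28 genes was at 68830 ± 8006 and 76616 ± 5729, lower in 10 of 11 cultures. With RLE factors, 6 of them fell and 3 rose. Of 20 immediate early genes, which respond to dissociation stress, 6 fell and none rose (median -0.32), among them Klf6 (218 ± 71.8 compared with 357 ± 64.8), Fos (214 ± 85.1 compared with 293 ± 71.7) and Dusp1 (116 ± 60.8 compared with 192 ± 28.3), but with RLE factors 1 fell and 1 rose.

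Of 75 nuclear genes of oxidative phosphorylation tested, 3 rose and 1 fell (median 0.05), a share of increases near the 4.48% of genes of at least 100 CPM, and the list was at 22778 ± 2925 and 21054 ± 2459 CPM, higher in 7 of 11 cultures. Atp5d and Atp5e of ATP synthase and Uqcr11 of complex III rose, and Cycs, cytochrome c, fell (125 ± 36.3 compared with 176 ± 21.0). With RLE factors 13 rose and none fell, beside 386 of all 11142 genes that rose, and with TMM factors none rose and 1 fell. Without the 9 named genes at least 4-fold higher, 12 rose and none fell, beside 352 of 11140 genes that rose. The comparison with the 4.48% thus depended on the scaling. Of 82 ribosomal protein genes, 3 rose and none fell (Rpsa, Rps26 and Rpl13a, median -0.01), likewise no more than that background, compared with 9 and none with RLE and 1 and 3 with TMM factors. In the mitochondrial gene expression list, which does not hold Lars2, 0 of 26 genes rose and 1 fell, and in the list of mitochondrial import and protein quality control 0 of 26 rose and 1 fell. The mitophagy receptor Bnip3l fell (78.3 ± 55.2 compared with 127 ± 33.7).

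Stress and death genes were split, beside 2.25% of all genes that rose and 7.22% that fell. Of 25 genes of apoptosis and p53 response, Ccng1 (173 ± 96.5 compared with 73.0 ± 19.2 CPM, higher in 10 of 11 cultures) and Mdm2 (168 ± 55.5 compared with 111 ± 13.0), both p53 targets, rose, and the proapoptotic Bcl2l11 fell (1 rose and 2 fell with TMM factors). Cdkn1a and Bax, also p53 targets, were not called (log2 fold changes -0.07 and 0.07). Of 19 genes of the integrated stress response, Atf5 (151 ± 86.0 compared with 48.0 ± 16) and Nupr1 (320 ± 160 compared with 206 ± 122) rose, and Cebpb and Atf3 fell. Of 12 genes used as markers of membrane repair or leak, S100a6, S100a11 and Ahnak rose and none fell, but with TMM factors 1 rose and 1 fell. Against other barcodes under 1000 UMIs these 3 were at -0.81, -0.0701 and -0.52, and Ahnak was at -0.18 in barcodes with at least 90% macrophage UMIs. No gene was called among 16 cell cycle genes (1 fell with TMM factors), and 1 of 20 glycolysis genes fell and none rose. With RLE factors 3 glycolysis genes rose and 1 fell, in DESeq2 2 rose and 1 fell, and with TMM factors none rose and 1 fell.

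Of 11 noncoding RNAs of the list of nuclear retained transcripts, 4 rose and 2 fell, with 2.25% and 7.22% of all genes. Gm42418 and AY036118, which lie within a ribosomal RNA gene, are 2 of the 4. Malat1 was at the lowest 3470, at the median 10823 and at the highest 33863 CPM, compared with 11669, 14539 and 25446, and fell by 0.70 on the log2 scale (SE 0.125, edgeR adjusted p = 4.3e-05). It was lower in 9 of 11 cultures. The 2 exceptions were the Dmp1KO cultures, in which it was at 0.89 when they were fitted alone (edgeR adjusted p = 0.863). The mt-rich barcodes of Dmp1KO cultures 2 and 3 held a mean of 24.6 and 7.05 Malat1 UMIs and a median of 1 in both. Without mt-rich barcodes of 5000 or more non-mitochondrial UMIs, Malat1 fell by 0.98 over all cultures.

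The deleted genes were then checked in mt-rich barcodes. Dmp1, which encodes a matrix protein of osteocytes, had 12 UMIs in WT, 10 in Fgf23cKO and 0 in Dmp1KO and Dmp1KO/Fgf23cKO, which allow up to 19.8 and 10.6 CPM. In other barcodes it had 2657, 2253, 3 and 149 UMIs. Fgf23 had 0 UMIs in the mt-rich barcodes of every genotype and 9, 9, 2 and 1 in other barcodes, too few for a comparison. Counts near the 3′ end of a transcript can lie outside the deleted part, so these values are a limited check of the labels.

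Within mt-rich barcodes, 1764 genes had enough UMIs to be compared between genotypes. In Fgf23cKO compared with WT, 28 rose (1.59%) and 19 fell (1.08%), in all 2.66%. Timp3, an inhibitor of matrix metalloproteinases, was at 770, 340 and 548 CPM in Fgf23cKO cultures 1 to 3 and at 0, 84.1 and 68.5 in WT (log2 fold change 3.12, SE 0.617, edgeR adjusted p = 0.00502). Dgkb, a diacylglycerol kinase, was at 88.8, 40.0 and 89.1 compared with 312, 588 and 651 (-2.86, SE 0.434, adjusted p = 2.26e-04). Neither overlapped between the genotypes, which the rule for naming required. Cct7, Nudt4 and Vdac3 rose from 1, 1 and 3 UMIs in WT to 33, 31 and 42, and Ap1b1 (21 UMIs in WT and 5 in Fgf23cKO), Cacna1a (30 and 18) and Gm11808 (31 and 20) fell as a share of UMIs.

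In Dmp1KO compared with WT, 52 genes rose (2.95%) and 54 fell (3.06%), in all 6.01%. The macrophage receptor Marco was at 389, 630 and 308 CPM in WT and at 14.3 and 12.2 in Dmp1KO, from 38 and 2 UMIs. In other barcodes it was at 384 and 12.2, which is the same direction. Vsig4, a complement receptor of macrophages, had 8 UMIs in WT and 0 in Dmp1KO, and Nkain2 (81 and 3 UMIs) and Dgkb (56 and 3) fell too. Grem1, a BMP antagonist, had 0 UMIs in WT and 30 in Dmp1KO, and Col8a1 (1 and 49 UMIs), Ptprd (2 and 43) and Cemip (3 and 61) also rose. Of the Dmp1KO UMIs, culture 2 held 41 for Col8a1, 30 for Ptprd and 48 for Cemip (588, 430 and 689 CPM, compared with 97.5, 158 and 158 in culture 3), and culture 3 held 23 for Grem1 (280 CPM, compared with 100.4 in culture 2). The mt-rich sum of culture 2 was 69693 non-mitochondrial UMIs in 96 barcodes. It was 44704 in the 93 barcodes under 5000 such UMIs and 32645 in the 83 barcodes of 30% or more. How much the deep barcodes weigh in these genes was not tested. These 4 genes were not higher in the other barcodes of Dmp1KO, with means of 5.81 compared with 5.90 CPM in WT for Grem1, 33.9 compared with 40.0 for Col8a1, 35.8 compared with 103 for Ptprd and 18.8 compared with 42.7 for Cemip.

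In Dmp1KO/Fgf23cKO compared with WT, 53 genes rose (3%) and 45 fell (2.55%), in all 5.56%. Sptbn1, a spectrin, was at 318, 473 and 441 CPM compared with 77.9, 84.1 and 34.3 (log2 fold change 2.88, SE 0.529, edgeR adjusted p = 8.41e-04), and the collagen receptor Ddr2 at 248, 270 and 685 compared with 156, 42.0 and 17.1 (3.08, SE 0.682, adjusted p = 0.00802). Cct7 (1 UMI in WT and 47) and Nudt4 (1 and 35) also rose, and Nkain2, Dgkb, Ppp4c and Cir1 fell. The 3 comparisons with WT share the WT cultures, so that Cct7, Nudt4 and Dgkb, which recur among them, do not do so independently.

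In Dmp1KO/Fgf23cKO compared with Dmp1KO, 28 genes rose (1.59%) and 32 fell (1.81%), in all 3.40%. Mfge8, which bridges phagocytes to apoptotic cells, was at 35.4, 28.9 and 30.4 CPM in Dmp1KO/Fgf23cKO and at 474 and 853 in Dmp1KO (log2 fold change -4.31, SE 0.451, edgeR adjusted p = 1.39e-07). The macrophage elastase Mmp12 was at 230, 164 and 183 compared with 674 and 2413 (-2.99, SE 0.397). Cdk8 was at 3493, 2161 and 3028 compared with 574 and 353 (2.65, SE 0.329, adjusted p = 3.45e-06). Groups did not overlap in any of the 3, which the rule for naming required. Gdf15 (52 and 1 UMIs), Marco (35 and 2) and Ncoa4 (34 and 2) rose, and Ank3 (2 and 30) and Cemip (15 and 61) fell. Of the 30 Ank3 UMIs in Dmp1KO, 29 were in culture 2 (416 CPM, compared with 12.2 in culture 3), as were 48 of the 61 Cemip UMIs. In other barcodes both went the opposite way. Ank3 was at a mean of 41.1 CPM in Dmp1KO/Fgf23cKO and 10.4 in Dmp1KO, and Cemip at 70.4 and 18.8. Mfge8 (62.7 and 1256), Mmp12 (346 and 2090), Cdk8 (154 and 55.0), Gdf15, Marco and Ncoa4 had the same direction in other barcodes as in mt-rich barcodes.

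Genotype differences of mt-rich barcodes had the same sign in other barcodes for 45 of 47 genes called in Fgf23cKO, 87 of 106 in Dmp1KO and 89 of 98 in Dmp1KO/Fgf23cKO compared with WT, and for 44 of 60 in Dmp1KO/Fgf23cKO compared with Dmp1KO. Both kinds of barcodes come from the same cultures and no share over all 1764 genes stands beside these counts, so they are a description only. Among the 9 named genes at least 4-fold higher in mt-rich barcodes, 6 were called higher and 0 lower in Fgf23cKO than in WT (1.59% and 1.08% of the 1764 genes). In Dmp1KO compared with WT, 0 were higher and 4 lower (AY036118, Camk1d, Cdk8 and Cmss1, with 2.95% and 3.06% of all), in Dmp1KO/Fgf23cKO compared with WT 6 were higher and AY036118 was lower (3% and 2.55%), and in Dmp1KO/Fgf23cKO compared with Dmp1KO 8 were higher and 0 lower (1.59% and 1.81%). Limited to barcodes with at least 90% macrophage UMIs, 16, 48, 24 and 31 genes were called in the 4 comparisons, and with the replicate number as a block 37, 102, 92 and 59. Leaving out WT culture 3, which holds 135 of the 244 WT barcodes, gave 16, 50 and 51 calls in the 3 comparisons with WT.

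Whether the difference between mt-rich and other barcodes itself depended on genotype was tested as an interaction with WT over the 11142 genes. In Fgf23cKO it was called for 4 genes (0.0359%), all with a lower log2 fold change of mt-rich to other barcodes than in WT. Among them, Gm42418 was at 4.87 in WT and 3.80 in Fgf23cKO, whereas Col1a1 had opposite signs (0.86 and -0.79). In Dmp1KO it was called for 126 (1.13%), of which 120 (1.08%) had a higher and 6 (0.0539%) a lower log2 fold change than in WT, and in Dmp1KO/Fgf23cKO for 28 (0.251%), of which 13 (0.117%) were higher and 15 (0.135%) lower. Cd36, Atp2b1 and the other named genes that fell were not among the called genes.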

How the data were processed

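The authors ran 10x Genomics 3′ single-cell RNA-Seq with CellPlex tags and deposited UMI counts per gene (32285) and tag (12) and barcode, without normalization, made with Cell Ranger 7.0.1 per the file headers. The submitters' processing notes name mm10, Cell Ranger and Seurat. Total counts per tagged culture ranged from 9518928 to 72482185 UMIs. Doublets between cultures had been removed by tag, and those within a culture remain. Members and lists were chosen with earlier results of these data known.

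mt-rich barcodes (20% or more mt UMIs) and other barcodes were summed per tagged culture with at least 10 barcodes and tested in edgeR 4.0.16 (R 4.3.3, limma 3.58.1, quasi-likelihood, filterByExpr, non-mt UMIs as library size, adjusted p under 0.1 over all genes). Genotypes were compared without a block. Shares were tested by exact permutation (scipy 1.17.1). Named between mt-rich and other barcodes are the 12 genes of largest increase and the 12 of largest decrease past the threshold with a mean over both kinds of barcodes of at least 100 CPM (UMIs per 1000000 non-mt UMIs) and 1 sign in all cultures. Named between genotypes are the 4 largest in each direction with at least 50 CPM. List members were named after their values were seen, when past the threshold. A withheld item is not reported here. Gene positions are those of GENCODE M21 (GRCm38, that is mm10), matched for 11141 of 11142 genes. Alternatives included DESeq2 1.42.0, TMM and RLE factors, other thresholds, thinning and single genotypes. On simulated data, 98.5% of 200 genes changed 4-fold between mt-rich and other barcodes were recovered among 11142 (8.80% of calls false), and 48% between Fgf23cKO and WT among 1764 (6.80% false). The 200 were drawn from genes whose mean level gave at least 50 UMIs over the mt-rich barcodes of the tagged cultures. No level particular to a culture was simulated, and recovery of genes with fewer UMIs was not tested. Upper limits where a count was 0 are 3 counts of the total and cover counting error only. Cultures are the replicates, and p-values measure the spread between cultures of 1 reaction per genotype.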

Additional observations from a re-analysis of the deposited data

Results flagged for a closer look

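For 8 pairs of named gene and genotype, the difference between mt-rich and other barcodes was itself different from that in WT (edgeR interaction test over 11142 genes, adjusted p under 0.1). In Dmp1KO the increase was larger than in WT for Ccnd2 by 2.84 on the log2 scale (SE 0.373, adjusted p = 4.34e-11), for Dpysl3 by 2.37 (SE 0.608, adjusted p = 0.0153) and for Gpx3 by 1.47 (SE 0.417, adjusted p = 0.0445). In Dmp1KO/Fgf23cKO it was larger for Ccnd2 by 2.09 (SE 0.334, adjusted p = 2.19e-06) and for Lars2 by 1.01 (SE 0.262, adjusted p = 0.0588), and smaller for Gm42418 (difference -0.92, SE 0.195, adjusted p = 0.00262) and AY036118 (-1.43, SE 0.304, adjusted p = 0.00262). In Fgf23cKO it was smaller for Gm42418 (-1.07, SE 0.195, adjusted p = 2.15e-04). The direction within each genotype was upward in all of these. For Dpysl3, the log2 ratio on CPM plus 10 was 4.11 in Dmp1KO culture 2 and 2.166 in Dmp1KO culture 3. It was 1.40, 2.168 and 0.79 in WT cultures 1 to 3, so Dmp1KO culture 3 lay within the range of WT.

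Over all genes, 4 differences were called in Fgf23cKO (0.0359% of genes, all with a lower log2 fold change than in WT, namely Col1a1, Col1a2, Col11a2 and Gm42418, listed after their values were seen), 126 in Dmp1KO (120 higher and 6 lower) and 28 in Dmp1KO/Fgf23cKO (13 and 15). At an unadjusted p under 0.05 there were 465, 746 and 538. The 120 in Dmp1KO (1.08% of all genes) include 6 of 16 stromal and 4 of 10 contractile genes. The median mt-rich barcode of Dmp1KO cultures 2 and 3 held 0 UMIs of either list. In culture 2 the mt-rich sum was 69693 non-mitochondrial UMIs in 96 barcodes and 44704 in the 93 barcodes under 5000 such UMIs. The weight of the deep barcodes in the 120 was not tested. Limited to barcodes with at least 90% macrophage UMIs, 0, 8 and 8 genes were called.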

How the results depend on the processing

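Limits. The mt-rich barcodes of a culture hold at most 113092 non-mitochondrial UMIs, which limits the precision of genes with few UMIs. Genotype, reaction and depth cannot be told apart. Alternatives with scaled floors, under 5000 or under 1000 non-mitochondrial UMIs, at least 50 UMIs per gene and without the 9 named genes at least 4-fold higher were chosen after seeing the data.

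Against 251 genes that rose and 804 that fell, counts moved by over 1.5 times with RLE factors (386 and 398), with TMM factors (1306 fell), at 30% or more (1468 fell), in barcodes with at least 90% macrophage UMIs (135 and 179), after thinning (73 and 355), with at least 500 genes (161 and 197), in WT alone (26 and 13), Fgf23cKO alone (44 and 224), Dmp1KO alone (32 fell) and Dmp1KO/Fgf23cKO alone (152 rose), against other barcodes under 1000 UMIs (0 and 3), with at least 50 UMIs per gene (154 rose) and without the 9 named genes (434 fell). Leaving out 1 culture gave 198 to 282 and 612 to 1137, and fitting without the culture as replicate block gave 241 and 820.

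The numbers of the cultures did not pair them across genotypes: none of 15 pairs with the same number correlated above 0.1 (-0.0898 to 0.0900). With the replicate number as a block, the share differences from WT were 11.7 points in Fgf23cKO (exact p = 0.25), -0.681 in Dmp1KO (exact p = 0.5) and 8.85 in Dmp1KO/Fgf23cKO (exact p = 0.25). Between Dmp1KO/Fgf23cKO and Dmp1KO the difference was 9.71 points (exact p = 0.5). Between genotypes in mt-rich barcodes, leaving out 1 culture gave 16 to 71, 50 to 118, 46 to 121 and 46 to 107 called genes against 47, 106, 98 and 60, an adjusted p under 0.05 gave 28, 68 and 57 in the comparisons with WT, barcodes with at least 90% macrophage UMIs gave 16, 48, 24 and 31, and Dmp1KO/Fgf23cKO compared with Dmp1KO had 102 without a filter on low counts and 105 at a threshold of 30%. For the interaction, barcodes with at least 90% macrophage UMIs gave 0, 8 and 8, and TMM factors gave 0 in Fgf23cKO.

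Shares counted with the untagged samples as replicates differed by 11.96 points in Fgf23cKO, 8.52 in Dmp1KO/Fgf23cKO and 7.85 between Dmp1KO/Fgf23cKO and Dmp1KO (exact adjusted p = 0.0381 each), although these samples share their pools. Leaving out 1 culture gave 10.98 to 12.9, 8.17 to 10.1 and 7.70 to 10.3 points. The difference between Dmp1KO and WT changed sign at thresholds of 25% (0.25) and 30% (0.474), with untagged samples (0.664), with at least 500 genes (0.0865) and over the cultures left out in turn (-1.40 to 1.15). After thinning, the share of stromal barcodes differed by -1.01 points (adjusted p = 0.650, exact test) and that of barcodes without a list UMI by -0.296. The share on the leading tag ranged from -0.560 to 0.315 with 1 culture left out.

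Single genes changed sign as follows on the log2 scale. Against other barcodes under 1000 UMIs, Ccnd2 was at -0.93, Malat1 at 0.23, Gm26917 at -2.61, Cald1 at -1.57, Tpm1 at -0.0072, S100a6 at -0.81, S100a11 at -0.0701, Ahnak at -0.52 and Actb at 0.0433. Malat1 was at 0.89 in Dmp1KO alone, Col5a1 at -0.19 and Ahnak at -0.0512 in Fgf23cKO alone, and Ahnak at -0.18 in barcodes with at least 90% macrophage UMIs. Col1a1, which was not called, was at -0.0815 with TMM factors, -0.73 with at least 500 genes, -0.79 in Fgf23cKO alone, -0.48 in Dmp1KO/Fgf23cKO alone, -0.0348 under 5000 UMIs and between -0.24 and 0.20 with 1 culture left out. The share of mt-Nd5 was at -0.0409, -0.0232 and -0.0107 points without WT culture 1, 2 or 3, and at most 0.0620 with another left out. In all, of the settings of single genes, 2185 kept direction and call, 389 lost the call, 8 gained it and 24 changed sign. The causes were not tested.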

Other observations

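In barcodes just below the threshold, between 10 and 20% mitochondrial UMIs (312 in the tagged cultures), the stromal list was at 21529 CPM ± 15789 (SD, n = 11), compared with 9248 ± 5636 at 5 to 10% (n = 11) and 8515 ± 8604 at 20 to 50% (n = 9). The macrophage list was at 23875 ± 6332, compared with 39526 ± 4629 and 28479 ± 7273. Col1a1 was at 8660 ± 7404, compared with 3234 ± 2291 and 3337 ± 5712, and Cd36 at 493 ± 323, compared with 667 ± 194 and 335 ± 170. These are descriptions over bins of the mitochondrial percentage with no test.

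Among the untagged samples, the fourth Dmp1KO/Fgf23cKO sample stood apart in depth. Its 48 mt-rich barcodes held 5.48-fold fewer non-mitochondrial UMIs than its 369 other barcodes by the ratio of the medians, compared with 68.2-fold in the tagged cultures of that genotype. The leading tag of untagged mt-rich barcodes was most often CMO304 in Fgf23cKO (39.4% of 221 barcodes) and CMO311 in Dmp1KO/Fgf23cKO (52.1% of 48).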
